A study of Homo sapiens with 2 samples.

Results

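RNA polymerase I and RNA polymerase III are the enzymes that copy the genes of ribosomal RNA, transfer RNA and other short structural RNAs. The genes described here encode subunits of these enzymes and factors that work with them, most of which bring the enzymes to promoters. They were chosen by symbol: every gene whose symbol starts with POLR1, POLR3, GTF3, TAF1A to TAF1D or SNAPC, together with RRN3, UBTF, TTF1, BRF1, BRF2, BDP1 and MAF1, without antisense genes and pseudogenes. The rule found 40 genes among the 19775 that have a probe set of 1 gene symbol.

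The study compared Eol1 cells given 100 nM Glivec for 4 h with untreated Eol1 cells. The line comes from a human eosinophilic leukaemia and expresses FIP1L1-PDGFRA, a fusion kinase that both groups share and that Glivec (imatinib) inhibits. Total RNA of 1 treated and 1 untreated sample carried a biotin label and was read on Affymetrix arrays, 1 array per group. No difference below therefore has a replicate check and no test was run, and how precise any value is depends on a single array.

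The arrays gave linear signal intensities, and every difference is the log2 ratio of Glivec over untreated signal. A gene was read from its probe set of highest mean signal, and signals under a floor of 13.7, the median of all non-control signals, were raised to it. All 40 genes had a signal above the floor on both arrays, so none of their ratios is a bound. The 1 measure of error at hand was how far probe sets of the same gene differed, which says nothing of how far separate cultures would differ. On the log2 scale this spread had a pooled SD of 0.33 in 5603 genes and of 0.43 in the 26 genes of the machinery for which several probe sets exceeded the floor on both arrays. Myeloid markers were present, with 6 of 6 above the floor on both arrays and summed signals of 9491 with Glivec and 6432 without. Of 7 eosinophil markers, PRG2 (6302 with Glivec and 4744 without) and CEBPE were above the floor on both arrays, while IL5RA, SIGLEC8 and GATA1 were below it on both. CLC (13.2 with Glivec and 19.4 without) and EPX (27.2 with Glivec and 12.6 without) exceeded it on 1 array each. Of the markers of other lineages, CD3D, CD2, MS4A1 and ALAS2 were below the floor on both arrays, and CD3E (9.48 with Glivec and 21.005 without) and HBB (30.5 with Glivec and 6.93 without) exceeded it on 1 array each. NKG7 and CD79A were above it on both, NKG7 at 697 with Glivec and 853 without, CD79A at 94.9 with Glivec and 60.03 without.

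As background, Pol I transcribes 1 kind of gene, the repeated ribosomal RNA genes in the nucleolus. UBTF and the SL1 complex (TBP with the TAF1 proteins) mark its promoter, and RRN3 links the enzyme to it. Pol III reaches transfer RNA genes through TFIIIC and TFIIIB, the 5S ribosomal RNA genes through TFIIIA as well, and the U6 small nuclear RNA and similar genes through the SNAP complex. MAF1 represses Pol III when growth signals fail. Output of both enzymes follows growth signalling, and the transcription factor MYC is a known activator of both.

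Of the genes chosen by the rule, those for subunits held more of the large differences than those for factors. The share with a negative ratio was close in both. The 17 subunit genes leave out those shared with Pol II as well, given further below. The 23 factor genes include TTF1, which ends Pol I transcription, and the repressor gene MAF1. Over the 17 subunit genes the median log2 ratio was -0.68, 9 were at least 1.5-fold lower and 12 (70.6%) had a negative ratio. Over the 23 factor genes the median was -0.11, 2 were at least 1.5-fold lower and 15 (65.2%) had a negative ratio. All 12705 measured genes had a median of 0.10, and 40.95% of them had a negative ratio. The difference between subunits and factors was not tested. Of the 40 genes, 6 were at least 2-fold lower (15% of them, against 2.63% of all measured genes): POLR1C, POLR1G, POLR1B, POLR3K, POLR3G and TAF1D. None of the 40 was at least 2-fold higher, against 3.13% of all measured genes, and with 40 genes a count of 0 is near that share. At least 1.5-fold lower were 11 of 40 (27.5%, against 8.33% of all measured genes), and 1, POLR3GL, was at least 1.5-fold higher (2.5%, against 13.5%). The other 28 lay within 1.5-fold. At a 3-fold threshold POLR1C alone was lower, against 0.677% of all measured genes, and 0 were higher, against 0.441%. With 40 genes such counts cannot be set apart from those shares. In bulk RNA a lower signal can come from fewer cells with a transcript or from less of it per cell, which cannot be told apart. In all, 27 genes had a negative and 13 a positive ratio.

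**Figure D1:**
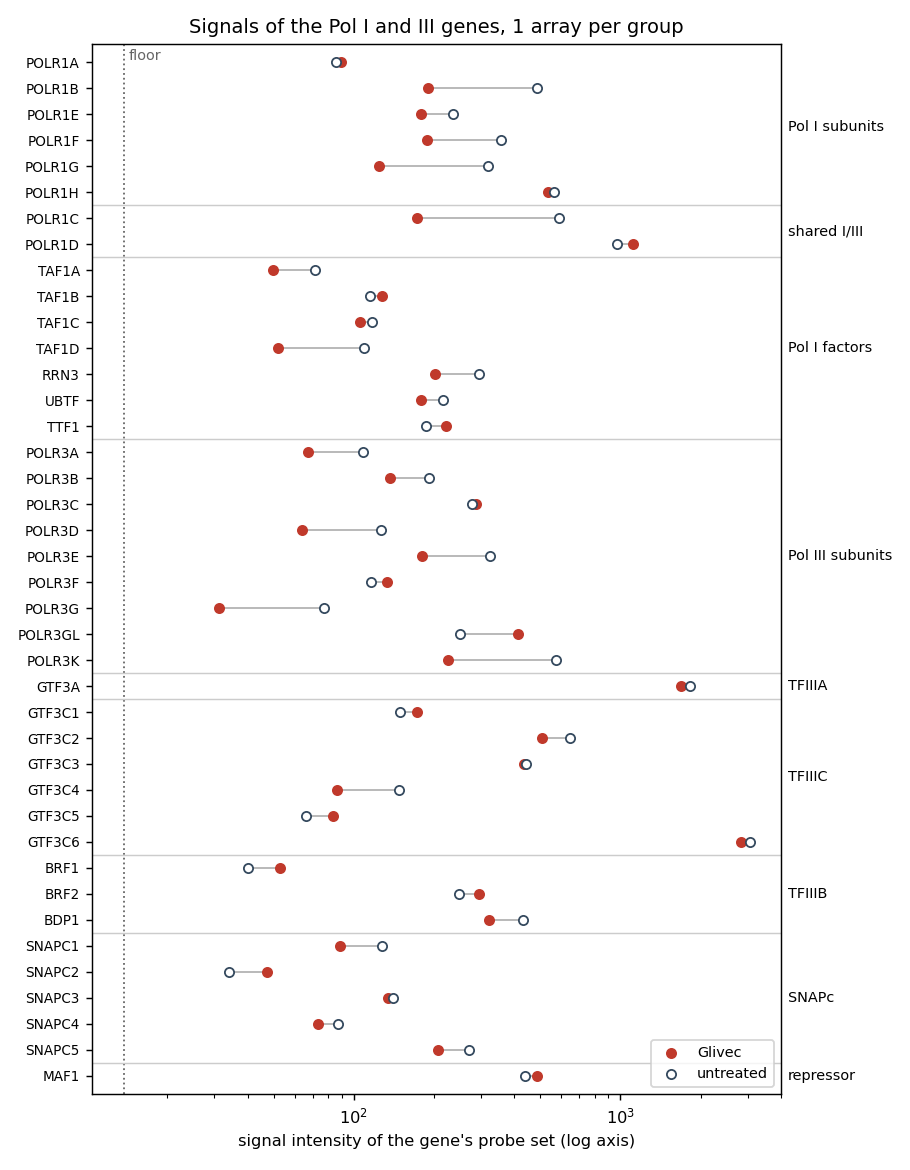
Signal intensity (log axis) of each of the 40 genes on the Glivec array (filled points) and the untreated array (open points), grouped by role; the dotted line is the floor of 13.7. The widest gaps are at POLR1C, POLR1G, POLR1B, POLR3K and POLR3G, where the Glivec signal is the lower one, and POLR3GL has its Glivec signal to the right.

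The arrays were scaled to a common trimmed mean before deposit, so directions are given relative to most genes. The 18 hybridisation spike-in probe sets were 1.67-fold higher in median on the Glivec array. When the arrays were scaled to these spike-ins instead, the median of all genes became -0.59 and all 40 genes had a negative ratio, including the 13 that were positive before. A positive ratio given below for any of these 40 genes therefore holds for the deposited scale, and the gene's ratio was below 0 with spike-in scaling. Which scale is closer to the amount of RNA per cell was not tested. Over all genes 398 were at least 2-fold higher and 334 lower as deposited, 290 higher and 398 lower with quantile normalization, 283 and 432 with median centring, 232 and 456 after a loess trend, and 43 and 2484 with spike-in scaling.

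Promoter sequences before the transcription start were read from RefSeq on GRCh38.p14 for 34 of the 40 genes, matched by gene identifier, to show what the lower genes carry there. Those of 4 genes are printed, 250 bases each, 5′ to 3′ on the gene's own strand and ending at the base before the start. POLR1G (chr19:45406394-45406643, plus strand), POLR3A (chr10:78029516-78029765, minus strand) and GTF3C4 (chr9:132669785-132670034, plus strand) are, of the 9 genes at least 1.5-fold lower with a promoter sequence here, those that hold the E-box CACGTG, the letters MYC is known to bind, shown in capitals. POLR1C (chr6:43516839-43517088, plus strand) is the gene with the lowest ratio, and its capitals mark CCGGAAG or its reverse complement, the core letters of ETS factor sites.
POLR1G: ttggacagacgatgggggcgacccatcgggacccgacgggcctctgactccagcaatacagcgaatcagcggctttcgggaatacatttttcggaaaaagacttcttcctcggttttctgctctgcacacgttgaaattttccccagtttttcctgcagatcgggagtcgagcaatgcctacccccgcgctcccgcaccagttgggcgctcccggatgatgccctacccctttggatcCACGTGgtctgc
POLR3A: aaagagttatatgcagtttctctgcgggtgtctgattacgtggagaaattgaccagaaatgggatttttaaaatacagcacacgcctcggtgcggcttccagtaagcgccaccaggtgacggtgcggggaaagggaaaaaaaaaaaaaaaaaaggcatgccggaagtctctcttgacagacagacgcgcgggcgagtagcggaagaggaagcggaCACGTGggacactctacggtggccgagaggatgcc
GTF3C4: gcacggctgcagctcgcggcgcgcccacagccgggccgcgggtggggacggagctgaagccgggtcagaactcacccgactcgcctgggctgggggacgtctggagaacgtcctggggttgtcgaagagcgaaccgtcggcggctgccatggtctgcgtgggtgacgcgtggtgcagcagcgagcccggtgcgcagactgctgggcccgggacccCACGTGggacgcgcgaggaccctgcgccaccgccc
POLR1C: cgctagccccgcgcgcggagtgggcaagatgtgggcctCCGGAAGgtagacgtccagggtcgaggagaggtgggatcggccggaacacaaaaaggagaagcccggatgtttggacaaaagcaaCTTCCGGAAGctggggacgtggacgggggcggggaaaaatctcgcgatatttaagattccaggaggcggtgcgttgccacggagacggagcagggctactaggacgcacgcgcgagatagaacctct
The E-box starts 12 bases before the transcription start in POLR1G and 35 bases before it in POLR3A and GTF3C4. In POLR1C the ETS letters start at 212, 127 and 124 bases before the start, and the last 2 matches lie on opposite strands and overlap.

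Across the 34 promoters CACGTG was found in 6 (17.6%), against 7.84% of 15842 protein-coding promoters of the same length and 6.49% of all 27305. POLR3G and POLR3D, of the 11 genes at least 1.5-fold lower, were not searched. The 6 were 3 of the 9 lower genes searched and 3 of the other 25 (POLR3C, GTF3C2 and GTF3C6). CCGGAAG, on either strand, was in 9 of 34 (26.5%), against 11.8% of the protein-coding promoters, and these were 4 of the 9 lower genes (POLR1B, POLR1C, TAF1D and POLR3A) and 5 of the other 25. TTCNNNGAA, the letters of STAT sites, was in 4 of 34 (11.8%), against 6.12%, and in POLR1B and TAF1D among the lower genes. In TAF1D it overlaps the CCGGAAG match. The promoters set beside them were not limited to genes measured on these arrays, and the differences in share were not tested. These matches describe letters in a window and no binding was measured.

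POLR1C and POLR1D encode the pair of subunits that Pol I and Pol III share, around which both enzymes assemble, and their signals went apart. POLR1C had a signal of 172 with Glivec and 587 without, 3.41-fold lower and a log2 ratio of -1.77. Its second probe set read 142 with Glivec against 566 without, a log2 ratio of -1.99. Both probe sets thus gave the lowest ratios of the machinery, and 61 of the 12705 measured genes had a lower ratio than POLR1C. POLR1D, its partner, had a signal of 1120 with Glivec and 973 without, and its 3 probe sets were between 0.03 and 0.51. The log2 ratio of POLR1C minus that of POLR1D was -1.97 on these probe sets.

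Of the 6 subunit genes of Pol I alone, 5 had a negative ratio and 3 were at least 1.5-fold lower. Over all measured genes these shares were 40.95% and 8.33%. POLR1B, the second largest subunit, which forms the active centre with POLR1A, had a signal of 190.1 with Glivec and 485 without, or 2.55-fold lower. Its other probe sets were lower too, at -1.28 (80.6 with Glivec against 195.6), -0.86 (38.8 against 70.2) and -0.16 (64.5 against 71.9) by a cross-hybridising one. The largest subunit, POLR1A, did not share this: its signal was 89.6 with Glivec and 85.6 without, a log2 ratio of 0.07, and its other probe sets were at -0.12 (57.4 against 62.5) and -0.41 (47.5 against 63.1). POLR1G, whose product sits with that of POLR1E as a built-in initiation and elongation module, had a signal of 124 with Glivec and 318 without, 2.56-fold lower on its 1 probe set. POLR1E itself had 179 with Glivec and 236 without, a log2 ratio of -0.39, with its other probe sets at -0.55 and -0.70. POLR1F, in the stalk that docks with RRN3, had 189 with Glivec and 357 without, 1.89-fold lower, and -0.65 by its dimmer probe set. POLR1H, which helps the enzyme cleave RNA when it backtracks, had 536 with Glivec and 564 without, and all 3 of its probe sets above the floor lay between -0.14 and -0.02. The subunits of this enzyme were therefore unequal on these arrays, with POLR1B, POLR1G and POLR1F well below POLR1A and POLR1H.

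The 7 Pol I factor genes had 1 member at least 2-fold lower, against 2.63% of all measured genes, and 6 within 1.5-fold. Most measured genes, 9936 of 12705, also lay within 1.5-fold. RRN3, the factor that makes Pol I able to initiate and a known target of ERK and mTOR signalling, had a signal of 202 with Glivec and 296 without, a log2 ratio of -0.55. RRN3 has near-identical pseudogenes, and 2 probe sets that match RRN3, RRN3P1 and RRN3P2 were at -0.54 (382 with Glivec against 553) and -0.24 (20.7 against 24.4). UBTF, which opens ribosomal RNA genes, had 179 with Glivec and 217 without, and its 4 probe sets above the floor ran from -0.27 to 0.08 (103 with Glivec against 98.02). TTF1, the factor that ends Pol I transcription, was at 0.26 (223 with Glivec against 186) and at -0.14 by its other probe set (187 against 206).

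Among the SL1 genes, TAF1D had a signal of 52.1 with Glivec and 109 without, 2.09-fold lower by its 1 probe set of a single symbol. This call is uncertain, because the gene hosts small nucleolar RNAs and 2 brighter probe sets listed for TAF1D together with them were at 0.03 (1101 with Glivec against 1075) and 0.15 (763 against 689). TAF1A had 49.5 with Glivec and 71.5 without, a log2 ratio of -0.53. TAF1B was at 0.15 (128 against 115) with 0.35 by its other probe set. TAF1C was at -0.15 (105 with Glivec against 117) by its brighter probe set and at 1.73 (47.8 against 14.4) by its dimmer one, whose untreated signal lay close to the floor. No common direction was seen over the 4 TAF1 genes.

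**Figure D2:**
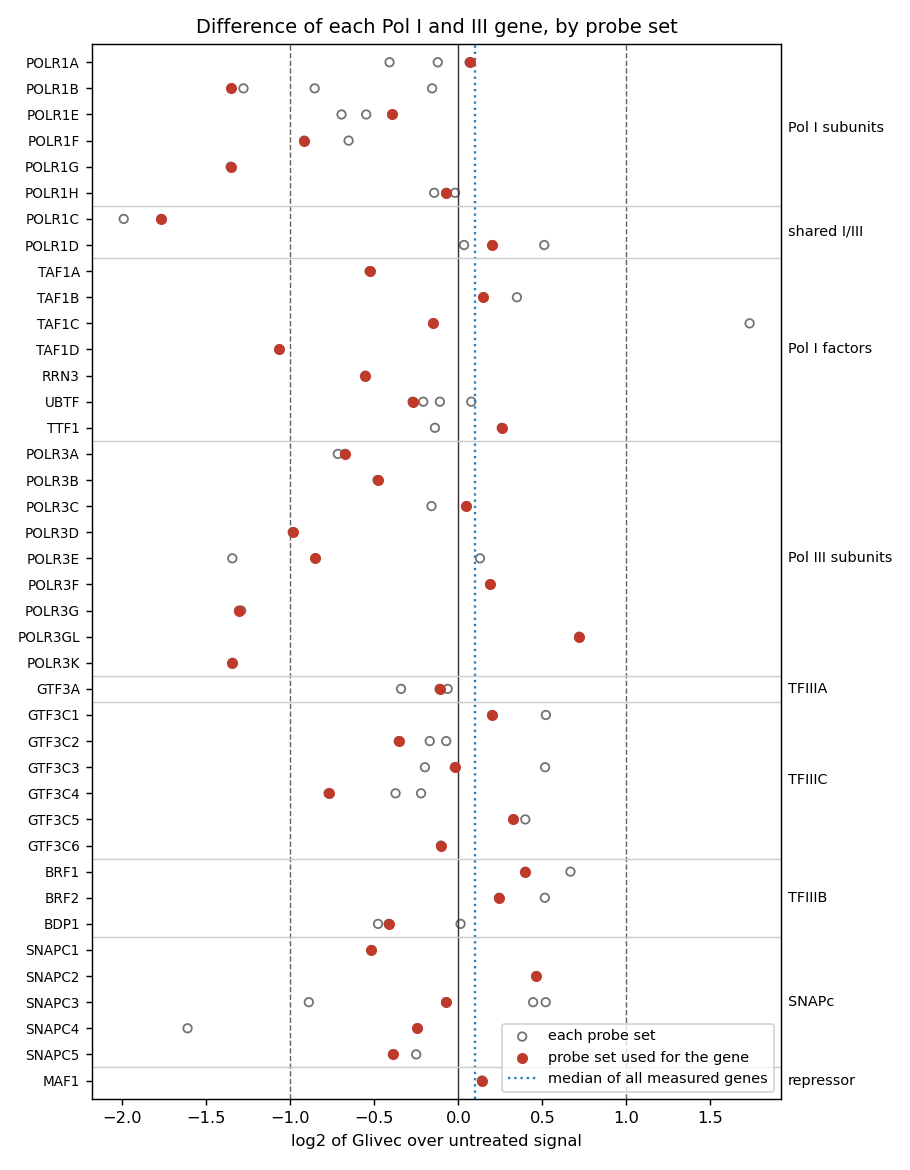
Log2 of Glivec over untreated signal for the 40 genes, with every probe set above the floor (open points) and the one used for the gene (filled points); dashed lines are 2-fold and the dotted line is the median of all genes, 0.10. POLR1C, POLR1B, POLR1G, POLR3K, POLR3G and TAF1D lie left of the 2-fold line, and the probe sets of TAF1C, POLR3E, SNAPC3, SNAPC4 and POLR1B are far apart.

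Of the 9 Pol III subunit genes on the array, 6 had a negative ratio, 5 were at least 1.5-fold lower and 1 was at least 1.5-fold higher. Over all measured genes these shares were 40.95%, 8.33% and 13.5%. POLR3K, the small subunit that takes part in RNA cleavage and in ending and restarting transcription, had a signal of 227 with Glivec and 576 without, 2.54-fold lower. Its second probe set was under the floor on both arrays. POLR3D and POLR3E, which form a pair in the enzyme, were lower by similar amounts. POLR3D had 63.95 with Glivec and 127 without, 1.98-fold lower and just short of the 2-fold line. POLR3E had 179.6 with Glivec and 324 without, 1.80-fold lower, and -1.35 by a second probe set (96.4 against 245). Another, near the floor, was at 0.13 (22.2 with Glivec against 20.3).

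The catalytic pair of Pol III, POLR3A and POLR3B, also had negative ratios. POLR3A had a signal of 67.6 with Glivec and 108 without, a log2 ratio of -0.68, with a second probe set at -0.72. With the floor at the 75th percentile POLR3A was at -0.31 and POLR3D at -0.54, so that neither was 1.5-fold lower. POLR3B had 137 with Glivec and 191 without, a log2 ratio of -0.48. POLR3C and POLR3F, which with POLR3G or POLR3GL form the subcomplex that contacts TFIIIB, differed little between the arrays. POLR3C had 286 with Glivec and 277 without, a log2 ratio of 0.05, or -0.16 by its other probe set (244 against 272). POLR3F had 133 with Glivec and 116 without, at 0.19.

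POLR3G and POLR3GL encode alternative forms of 1 subunit of that subcomplex, so that a Pol III enzyme holds the product of either gene; POLR3G is the form known from stem cells and tumour cells and POLR3GL the form of most differentiated cells. POLR3G had a signal of 31.3 with Glivec and 77.4 without, 2.47-fold lower. Its second probe set fell below the floor with Glivec (9.79 against 33.6), which gives a log2 ratio of -1.29 as a bound. POLR3GL had 413 with Glivec and 251 without, 1.65-fold higher on its 1 probe set. The log2 ratio of POLR3G minus that of POLR3GL was -2.02, a 4.07-fold shift of one against the other, which scaling by a constant, the spike-ins included, does not alter. With spike-in scaling POLR3GL itself was at -0.02 and POLR3G at -2.04. The signals of POLR3G are low, and with the floor at the 75th percentile it was not measured on either array.

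Factors that bring Pol III to its genes lay mostly within 1.5-fold, as did most measured genes (9936 of 12705). GTF3A (TFIIIA), the zinc finger protein that binds 5S ribosomal RNA genes, had 1693 with Glivec and 1830.1 without, and its 3 probe sets were between -0.34 and -0.06. Over the 6 TFIIIC genes the median was -0.06. Among them 1 was at least 1.5-fold lower, and with 6 genes this is near the 8.33% of all measured genes. That one was GTF3C4, a subunit with acetyltransferase activity, with a signal of 86.7 with Glivec and 148 without, 1.71-fold lower, and with other probe sets at -0.22 (107 against 125) and -0.37 (50.2 against 65.1). GTF3C2 was at -0.35 (508 with Glivec against 649), with other probe sets at -0.07 and -0.17. GTF3C6 was at -0.10 (2842 against 3055). GTF3C3 was at -0.02 (435 against 442), but at 0.52 by a second probe set (207 against 145) and at -0.20 by one near the floor (15.99 against 18.4). GTF3C1, the largest subunit, was at 0.20 (172 with Glivec against 149.7) and at 0.52 by its other probe set. GTF3C5 was at 0.33 (83.3 against 66.5) and at 0.40 by a cross-hybridising one. TFIIIC subunits thus lay on both sides of 0.

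In TFIIIB, the factor that places Pol III at the start site, BRF1 and BRF2 had positive ratios and BDP1 a negative one. BRF1, used at transfer RNA genes, had 53.0 with Glivec and 40.2 without, a log2 ratio of 0.40, and its second probe set was at 0.67 (53.9 against 33.97). BRF2, its counterpart at U6 genes, had 294 with Glivec and 248 without, at 0.24, and 0.51 by its other probe set. BDP1 had 323 with Glivec and 430.1 without, at -0.41, and 0.01 by a second probe set (44.9 against 44.5). The repressor gene MAF1 had 485 with Glivec and 439.9 without, a log2 ratio of 0.14. MAF1 is controlled mainly through phosphorylation of its protein, which these arrays do not measure.

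SNAP complex genes, which serve the small nuclear RNA genes of Pol II as well, held none at least 1.5-fold different. Among all measured genes 8.33% were lower and 13.5% higher by that much, and with 5 genes a count of 0 is near those shares. SNAPC1 was at -0.52 (88.9 with Glivec against 127), SNAPC5 at -0.39 (207 against 271), SNAPC4 at -0.24 (73.6 against 87.1) and SNAPC2 at 0.46 (47.1 against 34.2). SNAPC3 was at -0.07 by its brightest probe set (134 against 141) while its others were at -0.89 (76.4 against 141.6), 0.52 (57.1 against 39.8) and 0.44 (35.3 against 25.9). A cross-hybridising probe set of SNAPC4 was at -1.61 (31.4 with Glivec against 95.95). Probe sets of SNAPC3 and SNAPC4 therefore disagreed by more than the pooled spread, and neither gene had a settled value. Such wide ranges were not particular to this complex. Among others, probe sets ran from -0.15 to 1.73 in TAF1C, from -1.35 to 0.13 in POLR3E and from -1.35 to -0.16 in POLR1B.

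Probe sets taken singly were also counted. Of the 83 probe sets of the machinery with an array above the floor, 56 (67.5%) had a negative ratio, against 42.7% of all 24602 such probe sets of single genes. Of the 35 for subunit genes 27 (77.1%) were negative and 9 (25.7%) were at least 2-fold lower, and of the 48 for factor genes 29 (60.4%) were negative and 2 (4.17%) were at least 2-fold lower. All single-gene probe sets had 2.56% at least 2-fold lower. Several probe sets exceeded the floor in 27 genes, and in 18 of these they lay on 1 side of 0. The 9 others were POLR1A, TAF1C, UBTF, TTF1, POLR3C, POLR3E, GTF3C3, BDP1 and SNAPC3. Agreement in sign between probe sets was not counted over all genes. Of the 6 genes at least 2-fold lower, POLR1B, POLR1C and POLR3G rest on several probe sets and POLR1G, POLR3K and TAF1D on 1.

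**Figure D3:**
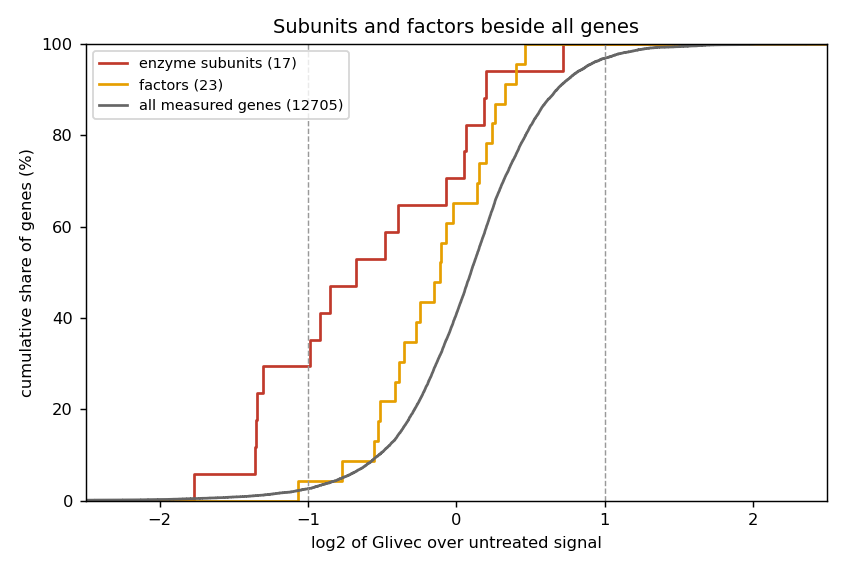
Cumulative share of genes (percent) by log2 of Glivec over untreated signal for the 17 subunit genes, the 23 factor genes and all 12705 measured genes; dashed lines are 2-fold. The subunit curve lies left of both others from -1.77 to about 0.40, with 5 of 17 genes beyond the left line, while the factor curve runs close to that of all genes at its left end.

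Subunits that Pol I and Pol III share with Pol II, and TBP, had ratios below 0 in 6 of 6 genes, with a median of -0.21. Of all measured genes 40.95% were below 0. POLR2H was 1.58-fold lower (597 with Glivec against 942), and POLR2F was at -0.50 and at 0.02 by its other probe set. POLR2E was at -0.02 and at 0.13 by its other probe set (1524 with Glivec against 1390), so its sign is unsettled. The 7 subunit genes of Pol II alone had a median of -0.08, 0 at least 1.5-fold lower and 1 higher. That gene was POLR2A, the largest subunit, with a signal of 310.4 with Glivec and 100.1 without, 3.10-fold higher, although a second probe set near the floor was at -0.29 (14.8 against 18.1). Single probe sets of POLR2C and POLR2D were lower than those genes' main ones, at -1.43 (24.8 with Glivec against 66.7, cross-hybridising) and -0.72. At least 1.5-fold lower were 9 of 17 subunit genes of Pol I and III and 0 of 7 of Pol II alone, beside 8.33% of all measured genes, and with 7 genes a count of 0 is near that share. The difference was not tested.

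Cofactors of ribosomal RNA gene transcription in the nucleolus were divided. Of 14 measured, 7 had a negative and 7 a positive ratio on the deposited scale, with a median of -0.08. The highest of these ratios was 0.55, and spike-in scaling lowers a ratio above the floor by 0.74, so this division does not hold on that scale. At least 1.5-fold lower were 2 (14.3%, against 8.33% of all measured genes), and with 14 genes a count of 2 is near that share. They were NOLC1, a nucleolar phosphoprotein that associates with Pol I, with 919 with Glivec and 1807 without, and the helicase gene DDX21, with 1442 with Glivec and 2810.1 without. NPM1, the abundant nucleolar chaperone, was at 0.46, NCL (nucleolin) at 0.07 and TCOF1, a partner of UBTF, at 0.01. Of 4 measured Pol III cofactors none was 1.5-fold different, beside 8.33% lower and 13.5% higher of all measured genes. The largest in size was SSB, the La protein that binds the ends of new Pol III transcripts, at -0.48 (1066 with Glivec against 1489).

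Products of the enzymes were represented by 2 genes of the 13 listed. RNA45SN5, a ribosomal RNA precursor gene, had a signal of 931 with Glivec and 232 without, 4.02-fold higher, and its second, cross-hybridising probe set read 349.9 with Glivec against 52.1 without, at 2.75. It lay opposite to the subunit genes. The standard Affymetrix labelling starts from poly(A) tails, which ribosomal RNA precursors normally lack, so what part of this signal is precursor RNA was not tested. RPPH1, the RNA of ribonuclease P, was at the floor in untreated cells (14.7 with Glivec against 4.60).

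**Figure D4:**
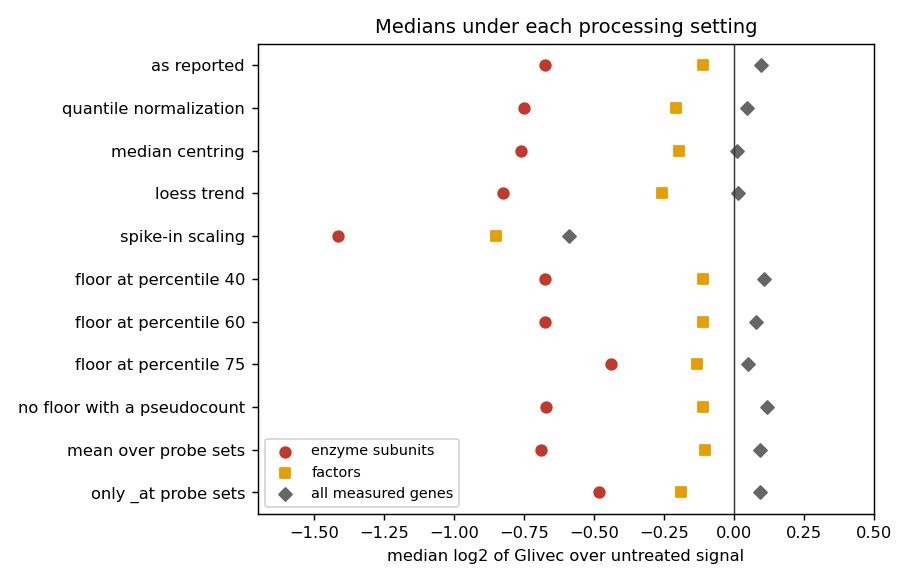
Median log2 of Glivec over untreated signal for the subunit genes (circles), the factor genes (squares) and all measured genes (diamonds) under each processing setting. In every row the subunits lie left of the factors and the factors left of all genes, with subunit medians from -1.41 with spike-in scaling to -0.44 with the floor at the 75th percentile.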

How the data were processed

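Values of 1 array of Glivec-treated and 1 of untreated Eol1 cells were used. The authors deposited linear signal intensities for 54675 probe sets, 62 of them controls. Per the submitters' processing notes MAS5 made them, with no version named. The mean signal after trimming 2% at each end was 100.014 on both arrays. No detection calls were used. Gene names came from the annotation table of the platform, and probe sets with several symbols were left out. Where possible a probe set whose suffix marks cross-hybridisation (_x_at) was not the gene's. A gene was measured with an array above the floor, which held for 12705 genes, 10975 of them on both arrays. The calculation was tested on simulated signals. The genes, lists and groups were chosen with earlier results of these data known, and the promoter letters after seeing the values. Every gene of the rule is named, with both signals for those at least 1.5-fold different or with probe sets that disagree. The alternatives tried were scaling by quantiles, by the median, by loess (span 0.3) or by spike-ins, other floors, a pseudocount of 0.375, averaged probe sets, probe sets of plain _at type alone, and thresholds of 1.5-fold and 3-fold. Tools were matplotlib 3.10.9, statsmodels 0.14.6, scipy 1.17.1, pandas 2.3.3 and numpy 2.4.6 under Python 3.11.15.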

Additional observations from a re-analysis of the deposited data

How the results depend on the processing

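No paired analysis was possible because the groups hold a single array each, and for that reason no replicate could be left out. With spike-in scaling 20 of the 40 genes were at least 2-fold lower in place of 6, and the median became -0.997 over all 40, -1.13 over the 13 Pol I genes (-0.39 as reported) and -0.85 over the 25 Pol III genes (-0.11 as reported). Over all genes the share at least 2-fold lower rose from 2.63% as reported to 19.3% with spike-in scaling. That setting shifts nearly all genes by a constant. At a 1.5-fold threshold 11 were lower and 1 higher, and at 3-fold 1 was lower. Quantile normalization, median centring and loess gave 7, 8 and 7 genes at least 2-fold lower, against 3.14%, 3.4% and 3.59% of all genes. Floors at the 40th and 60th percentile gave 6 each (3.07% and 2.64% of all genes). The pseudocount also gave 6, or 15% of the 40, but there the share over all 19775 genes was 9.92%. The floor at the 75th percentile gave 4 of 34 measured (2.27% of all genes). The mean over probe sets gave 5 (2.15%) and only _at probe sets 5 of 31 (2.65%). No setting at 2-fold gave any of the 40 at least 2-fold higher. Over all genes the share higher ran from 0.335% with spike-in scaling to 12.9% with the pseudocount. At least 1.5-fold lower were 31 with spike-in scaling and 7 with the floor at the 75th percentile, where dim genes reach the floor and TAF1D was at -0.32, POLR3A at -0.31 and POLR3D at -0.54. The share over all genes at 1.5-fold was not counted under these settings. With averaged probe sets TAF1C, at 0.79, joined POLR3GL above 1.5-fold. POLR1B was at -0.91 when its probe sets were averaged and at -0.86 by _at probe sets alone, below the 2-fold line. None of the 6 genes changed sign under the settings that gave it a value. They were picked for being at least 2-fold lower, so a change of sign was unlikely in advance and its absence is no support. Of these 6, POLR3G had no value and TAF1D was no longer 2-fold lower with the floor at the 75th percentile.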
